A study of Homo sapiens with 16 samples.

Results

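Genes of glycolysis and genes known to be induced by low oxygen were followed in SK-N-SH cells exposed to risperidone. The set was a list of 39 genes: 17 glycolytic enzymes, 8 transporters and regulators of glucose use, 12 other targets of the hypoxia factors, and the 2 factors HIF1A and EPAS1. Each gene was represented by the probe set, among those annotated to it alone, with the highest mean over the 16 arrays, and a probe set could be assigned to 35 of the 39. All 35 passed the filter on dim genes, a mean log2 value above 3.65, and were tested among 13680 genes of 18239 with such a probe set. Other probe sets of a gene are described where their own mean passed that dim limit, whereas averages over a gene's probe sets take in all of them. The glucose transporter SLC2A3, the monocarboxylate transporters SLC16A1 and SLC16A3 and the carbonic anhydrase CA9 had no such probe set and were not analysed here.

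SK-N-SH is an established line from a human neuroblastoma, in which adrenergic, neuroblast-like cells grow beside mesenchymal, substrate-adherent cells. Risperidone is an antipsychotic and an antagonist of serotonin and dopamine receptors. Total RNA was measured on Human Genome U219 arrays in 4 groups of 4 arrays. One group was untreated, and in the others risperidone at 10 µM had been present for 6, 24 or 48 h. All cultures had grown for 48 h and were nearly confluent when exposure began, and no group was labelled as kept at low oxygen. The control arrays carry the label untreated, while the protocol gives controls the solvent DMSO. When they were harvested is not stated, so the length of exposure and the time in culture cannot be told apart. The arrays are labelled biological replicates and nothing describes separate cultures, so each p-value reflects only how far these samples spread, which may be technical. The same 4 untreated arrays served all 3 contrasts with untreated, which are therefore not independent of each other.

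Glycolysis splits glucose into pyruvate in the cytosol, and lactate dehydrogenase turns pyruvate into lactate. When oxygen is scarce, the prolyl hydroxylases that mark the alpha subunits HIF1A and EPAS1 (HIF-2 alpha) for destruction slow down. The stabilised factors then bind the core letters ACGTG or GCGTG in promoters and enhancers of most glycolytic genes, of VEGFA and of mitophagy genes. Tumour lines often run this pathway at normal oxygen, and other factors, among them MYC, bind CACGTG, which contains the letters ACGTG.

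Promoter sequence was available for 34 of the 39 listed genes, as windows from 250 bases before to 50 bases after an annotated start (RefSeq, GRCh38.p14). SLC2A3, SLC16A1, BNIP3L, VEGFA and NDRG1 had none in the table used. The letters ACGTG, on either strand and counting those inside CACGTG, stood in a window of 20 of the 34 genes (58.8%), against 6790 of 27305 genes in the whole table (24.9%). They were in windows of 11 of the 17 enzymes, 4 of 6 transporters and regulators, 5 of 9 other targets and 0 of the 2 factors. Listed genes have several starts more often, and counted per window the letters stood in 38.7% of 62 windows of members and in 21.4% of 35116 windows of all genes. CACGTG was found for 23.5% of the listed genes and 8.77% of all genes, and GCGTG for 64.7% and 40.6%. A match is only a run of letters and no evidence that a factor binds there.

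Stretches of 250 bases before a start follow for 6 genes, chosen because the values of these genes span the range of the set: ALDOC, PGK1, ANKRD37 and BNIP3 were higher at every time, LDHA was called at no time against untreated, and CA12 was lower at every time. Each is printed from the 5′ to the 3′ end of the gene's strand, with ACGTG on either strand, or CACGTG, in capitals. ALDOC lies at chr17:28576896-28577145 (minus strand), PGK1 at chrX:78103998-78104247 (plus), ANKRD37 at chr4:185396591-185396840 (plus), BNIP3 at chr10:131981924-131982173 (minus), LDHA at chr11:18394313-18394562 (plus) and CA12 at chr15:63381847-63382096 (minus).
ALDOC: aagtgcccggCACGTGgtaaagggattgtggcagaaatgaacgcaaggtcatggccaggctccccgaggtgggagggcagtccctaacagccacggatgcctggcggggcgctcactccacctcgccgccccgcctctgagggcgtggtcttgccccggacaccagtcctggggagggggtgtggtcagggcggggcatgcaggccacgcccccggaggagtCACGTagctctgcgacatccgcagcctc
PGK1: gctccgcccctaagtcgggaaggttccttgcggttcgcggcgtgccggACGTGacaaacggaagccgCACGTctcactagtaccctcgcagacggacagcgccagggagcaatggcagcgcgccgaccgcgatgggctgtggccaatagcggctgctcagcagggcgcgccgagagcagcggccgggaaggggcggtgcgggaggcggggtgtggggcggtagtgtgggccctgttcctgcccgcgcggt
ANKRD37: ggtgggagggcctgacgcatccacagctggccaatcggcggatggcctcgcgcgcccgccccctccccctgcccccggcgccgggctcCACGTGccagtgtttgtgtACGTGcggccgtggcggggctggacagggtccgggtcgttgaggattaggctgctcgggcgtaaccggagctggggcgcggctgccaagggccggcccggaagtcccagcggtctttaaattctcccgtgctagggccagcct
BNIP3: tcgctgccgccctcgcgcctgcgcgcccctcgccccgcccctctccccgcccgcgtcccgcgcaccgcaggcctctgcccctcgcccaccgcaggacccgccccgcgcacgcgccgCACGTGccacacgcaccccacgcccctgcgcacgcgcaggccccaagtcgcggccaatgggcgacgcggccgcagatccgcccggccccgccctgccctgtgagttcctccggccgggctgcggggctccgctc
LDHA: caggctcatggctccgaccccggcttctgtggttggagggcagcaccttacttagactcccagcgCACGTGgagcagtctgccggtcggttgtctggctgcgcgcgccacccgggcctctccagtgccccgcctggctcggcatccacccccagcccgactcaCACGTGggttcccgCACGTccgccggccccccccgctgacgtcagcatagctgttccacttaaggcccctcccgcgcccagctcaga
CA12: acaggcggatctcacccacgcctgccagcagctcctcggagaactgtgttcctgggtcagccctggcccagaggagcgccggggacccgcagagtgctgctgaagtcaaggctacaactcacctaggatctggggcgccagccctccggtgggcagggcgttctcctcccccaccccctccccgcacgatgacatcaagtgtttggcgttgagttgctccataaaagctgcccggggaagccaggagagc
The stretch before ALDOC holds 2 places with these letters, as do those before PGK1 and ANKRD37, while BNIP3 has 1, LDHA 3 and CA12 0. For ACGTG, LDHA thus had the most matches of the 6 printed stretches and was among the genes with no call against untreated in the fit of all 16 arrays. The other core letters, GCGTG on either strand, stood at 2 places before ALDOC, 1 before PGK1 and 0 before ANKRD37. BNIP3 had 4 such places, LDHA 0 and CA12 1. Of the 16 genes higher at all 3 times that had a window, 11 held ACGTG, and of the 7 called at no time, 2 did. For GCGTG the order was the other way, with 10 of the 16 (62.5%) and 5 of the 7 (71.4%). CACGTG stood for 31.2% and 28.6%. Among the 7, HK1, PGAM1 and HIF1A were called higher at 6 and 24 h with averaged probe sets. So were LDHA without 48 h replicate 4 and LDHB with array medians subtracted. ENO1 and PGAM1 were called lower at 48 h under some settings. Membership of the group called at no time therefore depends on the processing.

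The arrays differed little in quality. Array medians lay between 4.5 and 4.62 on the log2 scale, and arrays of one group correlated at 0.996 to 0.9988 over the tested genes. The 3′ minus 5′ difference of the GAPDH control probe sets was 0.08 to 0.18 in untreated arrays and 0.07 to 0.12 in exposed ones. The fourth 48 h array lay away from the other 3 of its group for 3.85% of tested genes, against 0.687% to 2.62% for any other array. It is named below where a result depends on it. Markers of the 2 cell states of the line moved with the exposure. The summed level of 13 adrenergic markers was 39357 to 40817 in untreated arrays and 50203 to 55863 in exposed arrays, on the linear scale, and that of 14 mesenchymal markers was 31321 to 34202 and 13167 to 15201. Against untreated, 13 of the 14 mesenchymal markers fell at each time, and 13 (6 h), 12 (24 h) and 12 (48 h) of the 13 adrenergic markers rose. The remaining mesenchymal marker, TWIST1, rose at 48 h by 0.165. Of all tested genes 36.6%, 35.3% and 36.0% rose and 16.7%, 16.9% and 21.0% fell at the 3 times. Markers of Schwann, endothelial and leukocyte cells, 6 each, had mean log2 levels of 3.24 to 4.27 on every array, near the lowest value of the table (2.57), and 2, 4 and 1 of them were tested. Of these, 1 (6 h), 2 (24 h) and 1 (48 h) of the Schwann cell markers and 1 (6 h) of the endothelial markers were higher. The Schwann cell marker S100B stood above those mean levels, at 5.24 to 5.40 in untreated and 5.64 to 6.02 in exposed arrays. The part of these shifts in the results below was not tested. In bulk RNA, fewer cells of a type and less RNA per cell cannot be told apart.

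More of the listed genes were higher than lower at each time. A gene is called higher or lower here where limma's adjusted p is under 0.05. At 6 h 20 of the 35 measured genes rose (57.1%) and 3 fell, where 36.6% of all tested genes rose and 16.7% fell (53.3% in either direction). At 24 h 24 rose (68.6%) and 1 fell, against 35.3% and 16.9% of all genes (together 52.1%), and at 48 h 22 rose (62.9%) and 3 fell, against 36.0% and 21.0% (together 57.0%). Without untreated replicate 3 the number lower at 24 h was 2, and without untreated replicate 1 the number lower at 48 h was 5. With repeated quantile normalization or cyclic loess 7 genes were lower at 48 h. The median log2 difference over the 35 genes was 0.28, 0.31 and 0.23 at the 3 times, and that over all tested genes was 0.09, 0.09 and 0.07. Called higher at all 3 times were 19 genes: HK2, GPI, PFKL, PFKM, ALDOA, ALDOC, TPI1, PGK1, ENO2, SLC2A1, PDK1, PFKFB4, BNIP3, BNIP3L, VEGFA, ANKRD37, NDRG1, KDM3A and EPAS1. Only CA12 was lower at all 3 times, and 7 genes were called at none: HK1, GAPDH, PGAM1, ENO1, LDHA, LDHB and HIF1A. With cyclic loess scaling the all-gene medians came to 0.01, 0.01 and 0.00, and the share of calls that were higher went from 68.7% to 49.3% at 6 h, from 67.6% to 49.3% at 24 h and from 63.1% to 49.0% at 48 h.

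**Figure D1:**
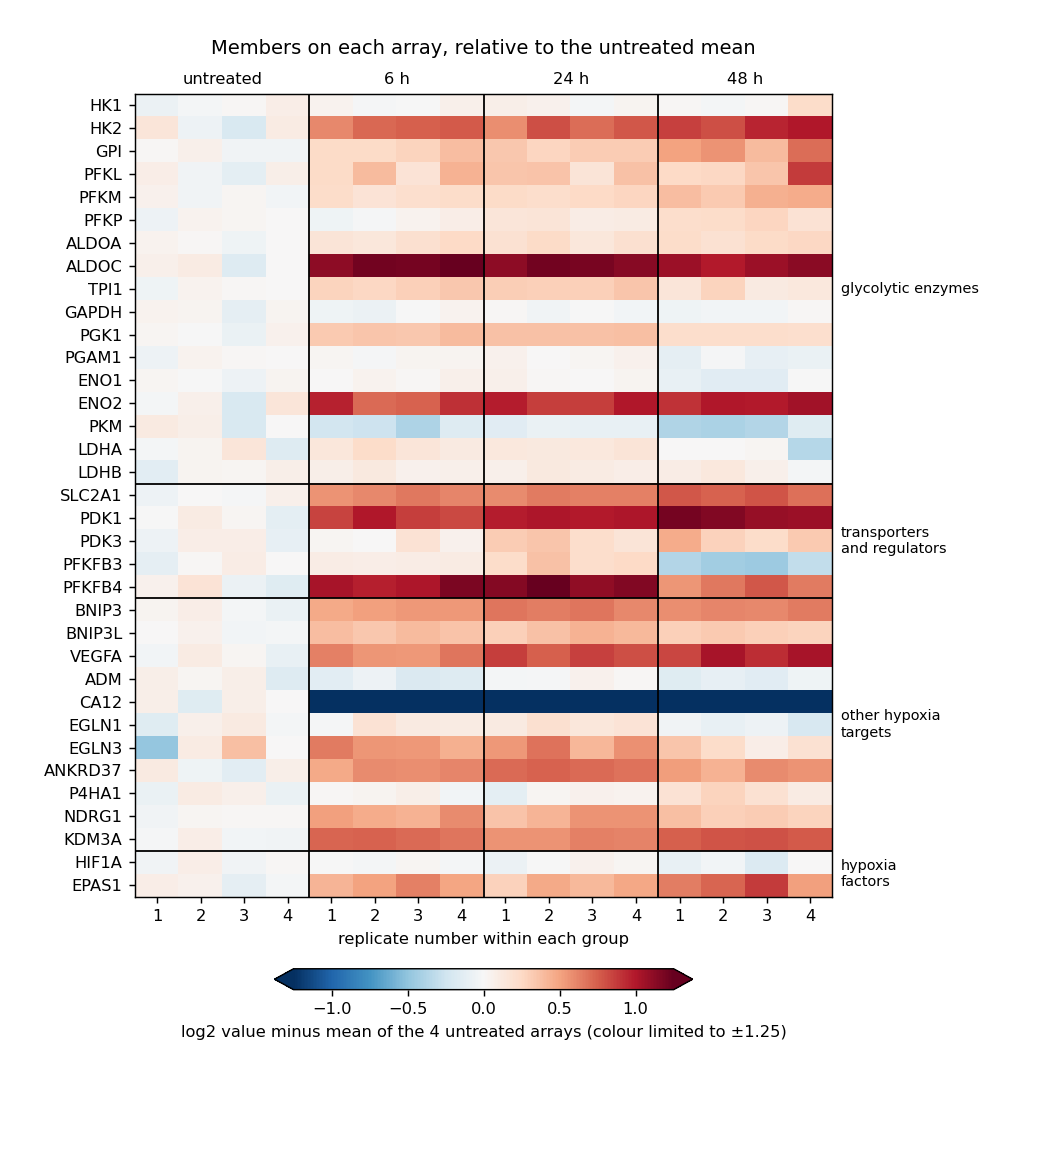
Log2 value of each of the 35 measured genes (rows, grouped by role) on each of the 16 arrays (columns, 4 per group), minus the mean of the 4 untreated arrays; red is higher, blue is lower, and colours are limited as the scale bar shows. ALDOC, PDK1, ENO2 and HK2 are red on all 12 exposed arrays, CA12 is blue on all 12, and PFKFB3 is bluest on the 48 h arrays.

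Among the glycolytic enzymes the largest rises were in one isoenzyme of a step, while the isoenzyme beside it differed by less. ALDOC, the aldolase of brain, read 9.02, 9.06, 8.80 and 8.96 in untreated cells and 10.08, 10.17, 10.16 and 10.24 at 6 h. It read 10.08, 10.17, 10.15 and 10.10 at 24 h and 10.03, 9.95, 10.03 and 10.09 at 48 h. Every exposed array stood above every untreated one. The log2 difference was 1.20 ± 0.06 (SE) at 6 h, 1.17 ± 0.06 at 24 h and 1.07 ± 0.06 at 48 h, or 2.30-, 2.24- and 2.09-fold (limma adjusted p = 1.1e-11, 1.93e-11 and 4.51e-11). All 4 further ALDOC probe sets were also higher at each time. ALDOA, the main aldolase of most tissues, rose by 0.19, 0.19 and 0.23.

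ENO2, the neuronal enolase, read 7.18, 7.27, 7.01 and 7.36 in untreated cells, 8.17, 7.91, 7.94 and 8.12 at 6 h, 8.19, 8.07, 8.07 and 8.21 at 24 h, and 8.11, 8.21, 8.20 and 8.25 at 48 h. The exposed groups overlapped with each other and none reached down to the untreated range. Its log2 difference from untreated was 0.83, 0.93 and 0.99, each ± 0.07 (SE; limma adjusted p = 6.06e-08, 1.4e-08 and 4.61e-09). ENO1, the enolase found in nearly all tissues, differed by 0.04 and 0.03 at 6 and 24 h and by -0.10 at 48 h and was not called at any of these times (limma adjusted p = 0.513, 0.549 and 0.0663). At 48 h it was called lower without untreated replicate 3 or 48 h replicate 4 (0.0341 and 0.0143) and under 6 other settings (0.0174 to 0.0424), and its other probe set was called lower (-0.13). HK2, the inducible hexokinase that traps glucose as glucose 6-phosphate, read 9.03, 8.81, 8.69 and 8.98 in untreated cells, 9.48, 9.60, 9.62 and 9.64 at 6 h, 9.46, 9.68, 9.58 and 9.65 at 24 h, and 9.73, 9.68, 9.83 and 9.88 at 48 h. Again no exposed array fell within the untreated range. HK2 was higher by 0.71, 0.72 and 0.90, each ± 0.07 (limma adjusted p = 4.26e-07, 3.64e-07 and 1.39e-08), and its other probe set by 0.16, 0.19 and 0.45, called at 48 h. HK1, the housekeeping hexokinase, differed by 0.02 to 0.06 with no call. Averaged over its 4 probe sets HK1 was called higher, by 0.13, 0.11 and 0.11 (adjusted p = 0.015, 0.0423 and 0.0392).

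The shift of one isoenzyme against the other was also taken on the per-array difference of their log2 values. These pairs were chosen after the values had been seen, so the shifts are given as a description with no test. HK2 minus HK1 was higher in exposed than in untreated arrays by 0.69 ± 0.10 (SE), 0.68 ± 0.10 and 0.84 ± 0.09 at the 3 times. For ALDOC minus ALDOA the shift was 1.01 ± 0.05, 0.97 ± 0.05 and 0.83 ± 0.04, and for ENO2 minus ENO1 0.80 ± 0.09, 0.90 ± 0.06 and 1.08 ± 0.07. None of these 9 comparisons had overlapping groups. For these and the pairs below, how often pairs of other genes overlapped was not counted. Of single tested genes 53.3%, 52.1% and 57.0% were called at the 3 times. In these pairs the isoenzyme that differed less read higher on the scale. Untreated means were 11.96 for ALDOA against 8.96 for ALDOC, and 12.46 for ENO1 against 7.2 for ENO2. For HK1 and HK2 they were 11.37 and 8.88. The part of signal level in the shifts was not tested. LDHA minus LDHB shifted by 0.08 ± 0.08, 0.04 ± 0.09 and -0.15 ± 0.10, and its groups overlapped at all 3 times.

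Enzymes of the upper and middle pathway rose by less. GPI, which converts glucose 6-phosphate to fructose 6-phosphate, was higher by 0.28, 0.31 and 0.54, each ± 0.06. Of the 3 phosphofructokinases, which catalyse the committed step, PFKM rose by 0.21, 0.24 and 0.41, PFKP by 0.12 at 24 h and 0.22 at 48 h, and PFKL by 0.31, 0.31 and 0.43. The PFKL calls at 6 and 24 h were lost without untreated replicate 2 (adjusted p = 0.0596 and 0.0628), without untreated replicate 3 (0.0777 and 0.0809), without 6 h replicate 2 or 4 (0.0716 and 0.0818) and without 24 h replicate 1, 2 or 4 (0.0642, 0.0663 and 0.0685). The PFKP call at 24 h was lost without untreated replicate 1 (adjusted p = 0.0563) and without 24 h replicate 1 or 2 (0.0511 and 0.0584). TPI1, which interconverts the triose phosphates, rose by 0.29, 0.32 and 0.17. PGK1, the first enzyme of the pathway to make ATP, rose by 0.35, 0.37 and 0.21, each ± 0.04, and of its 8 other probe sets 8, 8 and 6 were called higher at the 3 times.

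GAPDH, LDHA and LDHB had no call against untreated in the fit of all 16 arrays. GAPDH, the enzyme before PGK1, read 13.08, 13.07, 12.93 and 13.07 in untreated cells, 12.98, 12.96, 13.03 and 13.08 at 6 h, 13.05, 12.99, 13.03 and 13 at 24 h, and 12.98, 13, 13 and 13.05 at 48 h. The groups overlapped throughout, and the log2 differences of -0.03, -0.02 and -0.03, each ± 0.04, were not called (limma adjusted p = 0.662, 0.733 and 0.587). LDHA, which makes lactate, read 13.12, 13.17, 13.29 and 12.98 in untreated cells, 13.28, 13.37, 13.29 and 13.25 at 6 h, 13.27, 13.26, 13.27 and 13.30 at 24 h, and 13.14, 13.14, 13.16 and 12.78 at 48 h. The untreated range overlapped each exposed group, and 48 h replicate 4 was the lowest of the 16 arrays. Differences of 0.16, 0.14 and -0.09, each ± 0.08, were not called (limma adjusted p = 0.0964, 0.154 and 0.365). With 48 h replicate 4 left out of the fit, LDHA was called higher at 6 h (adjusted p = 0.0219) and at 24 h (0.0457), and without untreated replicate 3 at 6 h (0.0369). These 2 genes read near the top of the scale, whose highest value on any array was 13.98. LDHB differed by 0.07 to 0.09 without a call, and was called higher with array medians subtracted at 6 and 24 h (adjusted p = 0.0472 and 0.0333) and with a trended robust eBayes at 24 h (0.0404). PGAM1, a phosphoglycerate mutase, differed by 0.02, 0.04 and -0.08 without a call. It was called lower at 48 h without untreated replicate 1 (0.0397), with repeated quantile normalization (0.0108), cyclic loess (0.0208) and a trended robust eBayes (0.0317), while 3 of 3 further PGAM1 probe sets were called higher at 6 and 24 h and the average over the 4 was higher by 0.15 at both (0.00396 and 0.00298). PKM, the pyruvate kinase, was lower at 6 h (-0.26) and 48 h (-0.32). A further probe set of like level was also called lower at both times (-0.24 and -0.28). The remaining one above the dim limit, of lower level, was not called (-0.04 and -0.10). Averaged over all 5 probe sets, of which 2 were below the dim limit, the differences were -0.04 and -0.07 without a call (adjusted p = 0.588 and 0.274). The PKM probe set used had a mean of 7.93 over the 16 arrays, against 12.46 for ENO1 and 13.19 for LDHA. Another probe set, annotated to PKM together with other symbols, was not used.

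**Figure D2:**
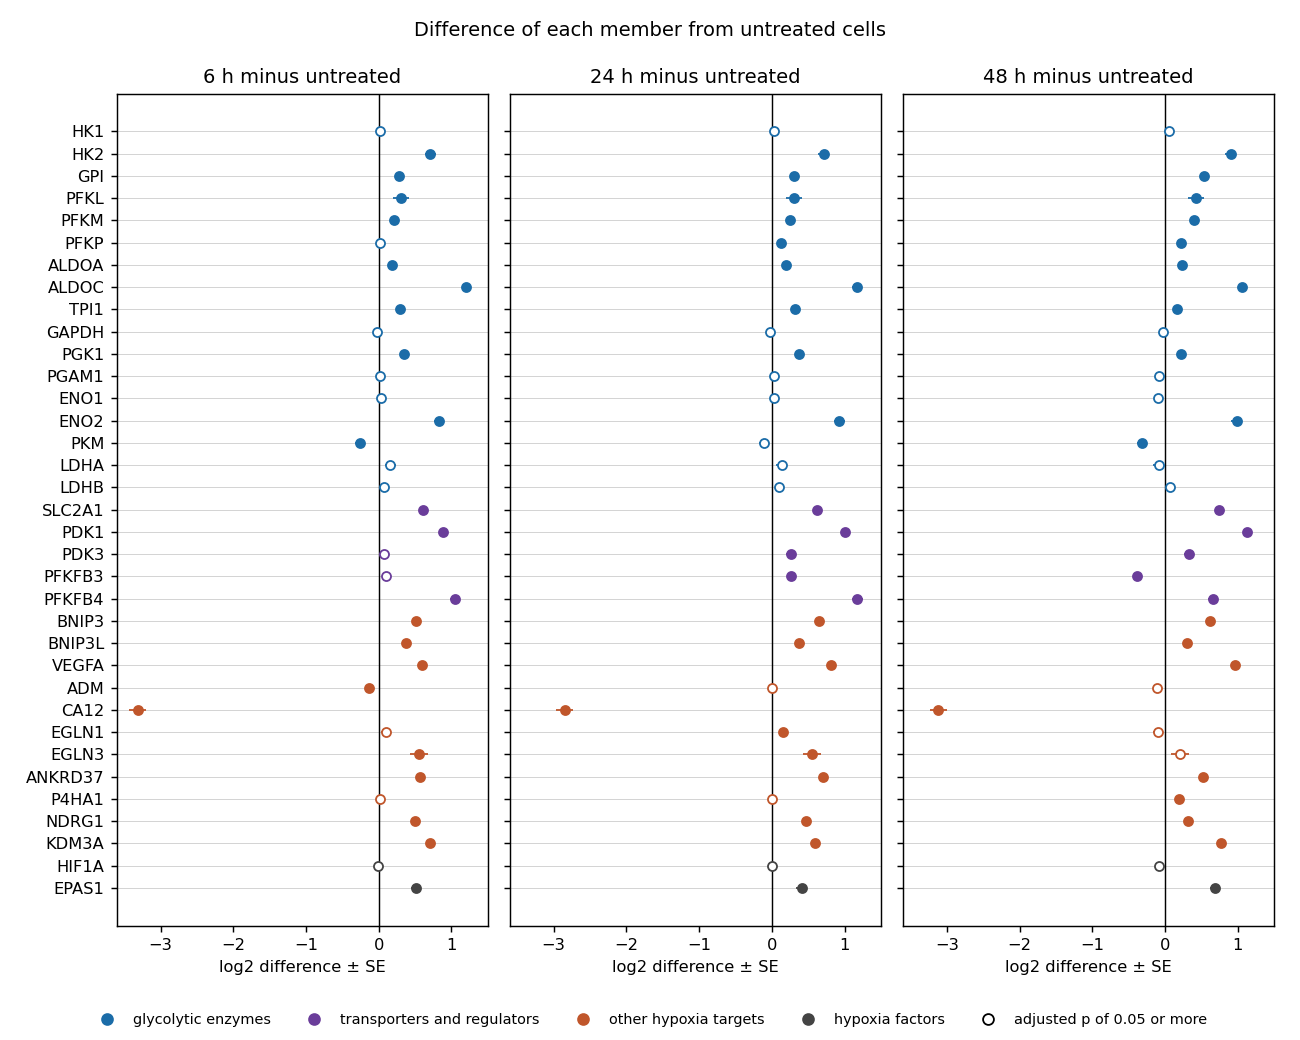
Log2 difference from untreated for each measured gene (rows) at 6, 24 and 48 h (panels), as the difference of group means of 4 arrays with its standard error from limma; filled points have an adjusted p under 0.05 and open points do not, and colours mark the role. ALDOC, ENO2 and HK2 lie right of their isoenzymes ALDOA, ENO1 and HK1 in every panel, and CA12 lies alone near -3.

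In total 9 of 17 enzymes rose and 1 fell at 6 h, 10 rose and 0 fell at 24 h, and 10 rose and 1 fell at 48 h. The shares higher were 52.9%, 58.8% and 58.8%, against 36.6%, 35.3% and 36.0% of all tested genes, and the shares lower were 5.88%, 0 and 5.88%, against 16.7%, 16.9% and 21.0%. Their median log2 difference was 0.19, 0.19 and 0.21 at the 3 times. These medians kept their sign under every scaling tried except centring on adrenergic markers, where they were -0.27, -0.30 and -0.34 and the all-gene medians were -0.36, -0.40 and -0.48.

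Of the 5 measured transporters and regulators of glucose use 3 rose at 6 h, 5 at 24 h and 4 at 48 h, when PFKFB3 fell; of all tested genes 36.6%, 35.3% and 36.0% rose. SLC2A1 (GLUT1), the basal glucose transporter, was higher by 0.60, 0.62 and 0.75, each ± 0.04 (limma adjusted p = 2.15e-09, 1.51e-09 and 1.04e-10), and 3 of 3 further probe sets were called higher at each time. PDK1, the kinase that shuts pyruvate out of the mitochondrial citric acid cycle, read 8.91, 9.02, 8.94 and 8.79 in untreated cells, 9.76, 9.92, 9.78 and 9.74 at 6 h, 9.90, 9.93, 9.91 and 9.93 at 24 h, and 10.11, 10.07, 10.00 and 9.98 at 48 h. All 12 exposed arrays exceeded all untreated arrays, and the 48 h arrays exceeded the 24 h arrays. The difference from untreated was 0.89, 1.00 and 1.13, each ± 0.05, which is 1.85-, 2.00- and 2.18-fold (limma adjusted p = 3.7e-10, 7.59e-11 and 1.28e-11). Its other probe set was higher by 1.37, 1.38 and 1.21. PDK1 was higher at 48 h than at 6 h by 0.24 (adjusted p = 0.00239), but with the mean of both probe sets by 0.04 (0.698). PDK3, another kinase of the same complex, differed by 0.07 at 6 h without a call and rose by 0.26 at 24 h and 0.33 at 48 h. PDK1 minus PDK3 shifted by 0.82 ± 0.07, 0.74 ± 0.05 and 0.80 ± 0.05, with no overlap between exposed and untreated arrays.

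The bifunctional enzymes PFKFB3 and PFKFB4 set the level of fructose 2,6-bisphosphate, which activates phosphofructokinase. PFKFB4 read 6.85, 6.96, 6.72 and 6.64 in untreated cells, 7.82, 7.76, 7.80 and 7.97 at 6 h, 7.94, 8.09, 7.90 and 7.95 at 24 h, and 7.34, 7.45, 7.57 and 7.44 at 48 h. The 48 h arrays lay between the untreated and the earlier exposed arrays without overlap. PFKFB4 was above untreated by 1.04, 1.18 and 0.66, each ± 0.07 (limma adjusted p = 1.87e-09, 4.13e-10 and 5.04e-07). From 24 to 48 h it fell by 0.52 (adjusted p = 4.95e-05). Its 2 other probe sets differed from untreated by 0.04 to 0.21 at 6 h, 0.23 to 0.25 at 24 h and -0.04 to 0.32 at 48 h, of which 0, 2 and 1 were called.

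PFKFB3 read 8.84, 8.97, 9.05 and 8.96 in untreated cells, 9.05, 9.04, 9.05 and 9.06 at 6 h, 9.18, 9.32, 9.17 and 9.20 at 24 h, and 8.59, 8.52, 8.50 and 8.65 at 48 h. It was thus highest on the 24 h arrays and lowest on the 48 h arrays, with no overlap of either group with untreated. The differences were 0.10 (not called, adjusted p = 0.132), 0.26 (0.000382) and -0.39 (4.84e-06), each ± 0.05. From 24 to 48 h PFKFB3 fell by 0.65 (2.16e-07). Its other probe set was higher at 24 h by 0.36 and differed by 0.20 at 48 h, at a level of 3.80 to 4.16, close to the dim limit. Averaged over all 4 probe sets, of which 2 were below that limit, the difference at 48 h was -0.04 (adjusted p = 0.499).

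The median log2 difference of the 5 transporters and regulators was 0.60, 0.62 and 0.66. PFKFB4 minus PFKFB3 shifted by 0.95 ± 0.10, 0.92 ± 0.09 and 1.05 ± 0.12, again without overlap.

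**Figure D3:**
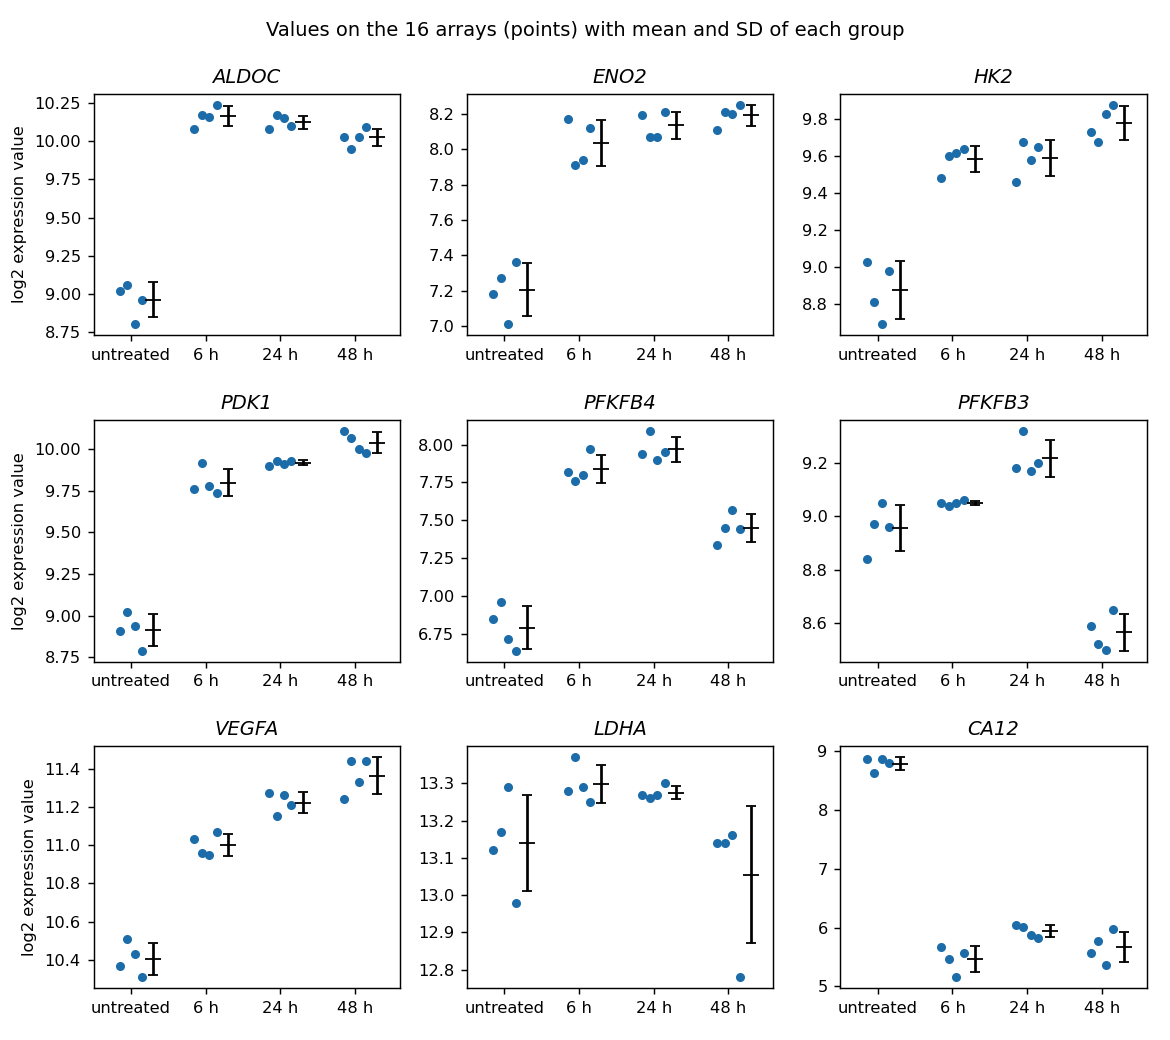
Log2 expression value of 9 genes on the 16 arrays (points) by group, with the group mean and SD (bars) of 4 arrays; each panel has its own vertical axis, which does not start at 0. PFKFB4 and PFKFB3 drop between 24 and 48 h, VEGFA climbs over the 3 times, LDHA overlaps between groups, and CA12 drops from between 8.63 and 8.86 to between 5.16 and 6.04.

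Hypoxia targets outside glycolysis mostly rose, and CA12 fell. VEGFA, the vascular growth factor, read 10.37, 10.51, 10.43 and 10.31 in untreated cells, 11.03, 10.96, 10.95 and 11.07 at 6 h, 11.27, 11.15, 11.26 and 11.21 at 24 h, and 11.24, 11.44, 11.33 and 11.44 at 48 h. Each exposed group stood clear of untreated, and the 24 and 48 h arrays clear of the 6 h arrays. The differences were 0.60, 0.82 and 0.96, each ± 0.06 (limma adjusted p = 1.26e-07, 2.18e-09 and 2.07e-10), and 48 h exceeded 6 h by 0.36 (0.000123). Between 6 and 24 h the difference of 0.22 missed the threshold (0.0502), which it passed without untreated replicate 2 or 4 or 48 h replicate 1 or 4 (0.0392 to 0.0473). Of 9 other VEGFA probe sets 8 were called higher at each time.

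KDM3A, a histone H3 lysine demethylase, read 9.39, 9.49, 9.37 and 9.36 in untreated cells, 10.13, 10.14, 10.11 and 10.07 at 6 h, 9.96, 9.96, 10.03 and 10.02 at 24 h, and 10.15, 10.19, 10.20 and 10.17 at 48 h. The exposed groups lay apart from untreated, with the 24 h arrays the lowest of the exposed ones. The differences were 0.71, 0.59 and 0.78, each ± 0.04 (limma adjusted p = 1.82e-10, 2.3e-09 and 4.7e-11), and both other probe sets were called higher at each time. The mitophagy receptors BNIP3 and BNIP3L rose by 0.52, 0.65 and 0.61 and by 0.37, 0.38 and 0.30, and BNIP3 minus BNIP3L shifted by 0.15 ± 0.03, 0.27 ± 0.04 and 0.32 ± 0.03 without overlap. All 5 other BNIP3L probe sets were called higher at each time, while the 1 other BNIP3 probe set was not called (0.00, 0.22 and 0.04). ANKRD37, an ankyrin repeat protein, rose by 0.57, 0.70 and 0.53 and NDRG1, a stress-responsive gene, by 0.50, 0.47 and 0.32.

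The prolyl hydroxylases that act on the factors are themselves targets. EGLN3 minus EGLN1 shifted by 0.45 ± 0.14, 0.40 ± 0.13 and 0.32 ± 0.14, with overlapping groups at 48 h. EGLN3 rose by 0.55 ± 0.12 at 6 h and 0.55 ± 0.12 at 24 h and differed by 0.21 at 48 h without a call (limma adjusted p = 0.159), but was called without untreated replicate 3 (0.34, adjusted p = 0.0163). Its 2 other probe sets differed by 0.095 and 0.18 at 6 h without a call and were called higher at 24 h (0.29 and 0.305). At 48 h they differed by -0.17 without a call and by 0.73, called higher. Averaged over the 3 probe sets EGLN3 was called higher at 48 h, by 0.26 (limma adjusted p = 0.0012). EGLN1 was called higher at 24 h by 0.16, a call that was lost without untreated replicate 1 (0.11, adjusted p = 0.117) or 4 (0.0715) and without 24 h replicate 2, 3 or 4 (0.0831, 0.0528 and 0.0666), and its 2 other probe sets pointed the other way (-0.17 and -0.12). At 48 h EGLN1 differed by -0.10 without a call (adjusted p = 0.149). It was called lower there by both other probe sets (-0.29 and -0.27), averaged over the 3 (-0.22, 0.00359), with repeated quantile normalization (0.04) and with cyclic loess (0.00536). P4HA1, a collagen prolyl hydroxylase, differed by 0.02 and 0.00 at 6 and 24 h and rose by 0.19 at 48 h. ADM, the peptide adrenomedullin, gave opposite signs in different probe sets. The one used was called lower at 6 h by a difference of -0.13 (adjusted p = 0.041). The call was lost without any of 8 of the 16 arrays in turn, with adjusted p between 0.0502 and 0.109: untreated replicates 1, 2 and 3, 6 h replicates 1, 3 and 4, and 24 h replicates 2 and 4. Its other 2 probe sets differed by 0.10 and 0.16 at 6 h and were called higher at 24 h (0.23 and 0.36), where the one used differed by 0.01. Averaged over the 3 probe sets ADM was called higher at 24 h, by 0.20 (0.000401).

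CA12, a carbonic anhydrase of the cell surface that helps tumour cells regulate pH, was the gene of the set that changed most. It read 8.86, 8.63, 8.86 and 8.79 in untreated cells, 5.67, 5.47, 5.16 and 5.57 at 6 h, 6.04, 6.01, 5.87 and 5.83 at 24 h, and 5.56, 5.77, 5.37 and 5.97 at 48 h. The lowest untreated array exceeded the highest exposed array by a wide margin. CA12 fell, with log2 differences of -3.32, -2.85 and -3.12, each ± 0.12, or 9.97-, 7.20- and 8.68-fold (limma adjusted p = 4.13e-13, 3.05e-12 and 7.02e-13). Its 3 other probe sets above the dim limit were called lower at each time, by differences of -3.37 to -0.74 at 6 h, and another below it read 3.43 to 3.51 in every group. The 14 mesenchymal markers, measured on the same arrays, had a median difference of -2.79, -2.49 and -2.67 at the 3 times, and their part in the fall of CA12 was not tested.

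**Figure D4:**
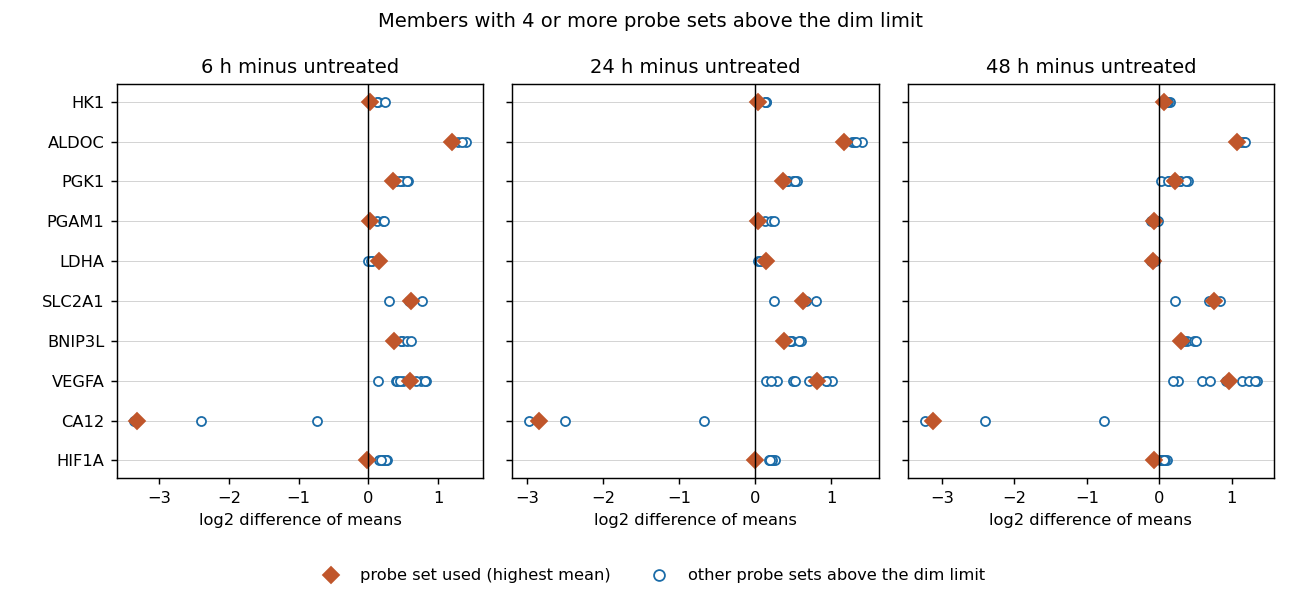
Log2 difference of group means from untreated at 6, 24 and 48 h (panels) for the 10 genes with 4 or more probe sets above the dim limit of 3.65: the diamond is the probe set used, and open circles are the others above that limit. The probe sets of ALDOC, PGK1, SLC2A1, BNIP3L and VEGFA lie right of 0, those of CA12 left of 0, and for HIF1A the 7 other probe sets lie right of the one used.

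Glycolytic enzymes and other hypoxia targets were then set side by side. At 6 h 9 of 17 enzymes and 7 of 11 other targets rose, at 24 h 10 and 8, and at 48 h 10 and 7. These were 52.9%, 58.8% and 58.8% of the enzymes and 63.6%, 72.7% and 63.6% of the other targets. Among all tested genes 36.6%, 35.3% and 36.0% rose. Falls among the other targets numbered 2, 1 and 1 (18.2%, 9.09% and 9.09%), against 16.7%, 16.9% and 21.0% of all tested genes. The median of the other targets was 0.50, 0.47 and 0.30 at the 3 times, against 0.19, 0.19 and 0.21 for the enzymes. Without CA12 the medians of the 10 remaining targets were 0.51, 0.51 and 0.31. Averaged over each gene's probe sets the median of the other targets was 0.26, 0.38 and 0.26. These are descriptions of the lists, with no test of the difference. Enzymes spread from -0.26 to 1.20 at 6 h, a range that held 7 enzymes without a call beside ALDOC, ENO2 and HK2. Under centring on adrenergic markers the medians of the other targets were 0.05, -0.01 and -0.26, so their direction at 24 and 48 h depends on that choice. The all-gene medians under that centring were -0.36, -0.40 and -0.48, below those of the other targets at each time.

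The 2 oxygen-sensitive factors differed. HIF1A read 11.96, 12.09, 11.96 and 12.02 in untreated cells, 12, 11.98, 12.03 and 11.98 at 6 h, 11.93, 12, 12.06 and 12.03 at 24 h, and 11.91, 11.97, 11.84 and 12.01 at 48 h. The groups overlapped, and the differences of -0.01, 0.00 and -0.08, each ± 0.05, were not called (limma adjusted p = 0.876, 0.969 and 0.192). Of its 7 other probe sets 5 were called higher at 6 h and 5 at 24 h, with all 7 between 0.15 and 0.27 and between 0.18 and 0.26, and 0 at 48 h. With the mean of all probe sets HIF1A was higher by 0.19 at 6 h (0.00414) and 0.19 at 24 h (0.00488). EPAS1 read 10.71, 10.68, 10.51 and 10.60 in untreated cells, 11.05, 11.13, 11.25 and 11.12 at 6 h, 10.91, 11.10, 11.03 and 11.11 at 24 h, and 11.26, 11.35, 11.50 and 11.14 at 48 h. All exposed arrays exceeded the untreated ones. EPAS1 rose by 0.51, 0.41 and 0.69, each ± 0.07 (limma adjusted p = 1.6e-05, 0.000147 and 3.72e-07). The shift of EPAS1 minus HIF1A was 0.52 ± 0.06, 0.42 ± 0.06 and 0.76 ± 0.12, and these groups did not overlap either. RNA levels do not give the amount of either protein, which oxygen controls by degradation.

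Between 6 and 24 h little changed and between 24 and 48 h much did. From 6 to 24 h 1 of 35 genes was called, where 2.4% of all tested genes were (1.55% higher and 0.855% lower): CA12 was higher at 24 h by 0.47 (adjusted p = 0.0439). This call was lost without any of 11 arrays in turn: untreated replicate 3 or 4 (0.0501 and 0.0547), 6 h replicate 2, 3 or 4 (0.091, 0.145 and 0.0678), any 24 h array (0.0614 to 0.13) and 48 h replicate 1 or 2 (0.0534 and 0.0543). From 24 to 48 h 6 genes were higher and 11 lower, or 17.1% and 31.4% of the 35, against 13.5% and 15.1% of all genes (together 28.6%). EPAS1 (0.28), GPI (0.23), P4HA1 (0.19), KDM3A (0.18), PFKM (0.16) and SLC2A1 (0.12) were higher at 48 h. PFKFB3 and PFKFB4 (above), EGLN1 (-0.26), LDHA (-0.22), PKM (-0.22), ANKRD37 (-0.18), NDRG1 (-0.16), PGK1 (-0.155), TPI1 (-0.15), ENO1 (-0.13) and PGAM1 (-0.12) were lower. Of these 17 calls 8 remained whichever array was left out: those of EPAS1, GPI, KDM3A, PFKM, PFKFB3, PFKFB4, EGLN1 and PGK1. The TPI1 call was lost without 24 h replicate 4 or 48 h replicate 3 and that of P4HA1 without 24 h replicate 1 or 48 h replicate 2 (adjusted p = 0.0522 to 0.073). The LDHA call was lost without 6 h replicate 3 or any 24 h array (0.0509 to 0.0861), and its difference was -0.13 without 48 h replicate 4 (0.118). PGAM1 lost its call without 6 h replicate 3, any 24 h array or 48 h replicate 1, 3 or 4 (0.0511 to 0.103), and ENO1 without 24 h replicate 1, 2 or 4 or 48 h replicate 1, 2 or 3 (0.0552 to 0.0915). SLC2A1 lost it without 24 h replicate 1, 3 or 4 or 48 h replicate 1, 2 or 3 (0.056 to 0.0892), and PKM without 24 h replicate 2, 3 or 4 or 48 h replicate 1, 2 or 3 (0.0534 to 0.0731). ANKRD37 lost it without 24 h replicate 1, 2 or 3 or 48 h replicate 1 or 2 (0.0542 to 0.0899), and NDRG1 without 24 h replicate 3 or 4 or 48 h replicate 2, 3 or 4 (0.0641 to 0.112). The number lower at 48 h was 7, 6, 7 and 5 without 24 h replicates 1 to 4, 7, 7 and 6 without 48 h replicates 1 to 3, and 9 without 48 h replicate 4. Between 6 and 48 h 8 genes were higher and 9 lower, against 16.7% and 17.0% of all genes (together 33.6%), without 48 h replicate 4 the counts were 9 and 6, and without 6 h replicate 2 the number lower was 5.

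Genes that tune the hypoxia factors were examined as a list of 14, all of which were measured. At 6, 24 and 48 h 7, 6 and 5 rose and 1, 2 and 1 fell, shares of 50.0%, 42.9% and 35.7% higher against the 36.6%, 35.3% and 36.0% of all genes given above. CITED2, which competes with the factors for the coactivators CREBBP and EP300, read 6.99, 7.33, 7.61 and 7.37 in untreated cells, 3.92, 3.91, 3.56 and 3.70 at 6 h, 4.05, 4.00, 4.18 and 3.80 at 24 h, and 4.28, 3.83, 4.12 and 4.15 at 48 h. The exposed arrays stood near the dim limit of 3.65 and far below the untreated ones. CITED2 fell, with differences of -3.55, -3.32 and -3.23, each ± 0.12 (limma adjusted p = 3.72e-13, 1.04e-12 and 8.94e-13). HIF1AN, the asparaginyl hydroxylase that blocks coactivator binding, rose by 0.26, 0.25 and 0.48, and ARNT, the constant partner of both alpha subunits, by 0.29, 0.20 and 0.44. CREBBP differed by 0.00 at 6 h, fell at 24 h (-0.16) and rose at 48 h (0.34).

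A further list of 26 hypoxia-induced genes, of which 24 were tested, moved in both directions. At the 3 times 13, 14 and 12 rose (54.2%, 58.3% and 50.0%) and 6, 5 and 8 of the 24 fell (20.8% at 24 h and 33.3% at 48 h). Of all tested genes 36.6%, 35.3% and 36.0% rose and 16.7%, 16.9% and 21.0% fell. The list had medians of 0.19, 0.24 and 0.20. STC2, a secreted glycoprotein of calcium and phosphate balance, read 5.20 to 5.38 in untreated arrays and 6.32 to 6.82 on the 12 exposed arrays. It rose by 1.248, 1.272 and 1.232, each ± 0.09 (limma adjusted p = 1.8e-09, 1.43e-09 and 1.61e-09). LOX, a lysyl oxidase that crosslinks collagen, read 6.21 to 6.62 in untreated and 4.33 to 4.79 in exposed arrays and fell, with differences of -1.77, -1.93 and -2.10. The related LOXL2 (-1.19, -1.03 and -0.93) and HMOX1, the inducible haem oxygenase (-1.08, -0.84 and -1.06), fell too. HMOX1 read 4.85, 4.61, 5.80 and 5.88 in untreated arrays (SD 0.649) and 3.96 to 4.59 in exposed arrays, not far above the dim limit of 3.65. Its untreated replicate 2 lay close to the highest exposed array, so the size of the fall rests largely on untreated replicates 3 and 4. The falls of LOX and LOXL2 stood beside those of the mesenchymal markers given above, whose part in them was not tested.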

How the data were processed

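The deposited table gives log2 expression values per probe set, with RMA (robust multi-array average) named in the submitters' processing notes; its software is not given in the sources used here. RMA as a method corrects background, makes the arrays' distributions equal and summarises each probe set. It held 49386 probe sets, 93 of them controls, with 45253 annotated to 1 gene symbol, 1327 to several and 2713 to none; 45172 of the 45253 matched RefSeq, with 0 symbols changed. A change in total RNA per cell cannot be seen on such values.

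Each of 18239 genes took its single-symbol probe set of highest mean, and the dimmest 25% (mean under 3.65) were left out. Testing used limma 3.58.1 under R 4.3.3, with all 16 arrays in 1 fit, a mean per group and Benjamini-Hochberg adjustment within each contrast over 13680 genes at 0.05; the procedure was tested on simulated data. Values after ± are standard errors, with n = 4 arrays a group, which limits the precision. Shifts between paired genes were added after the values had been seen.

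The members and all gene lists were chosen with earlier results of these data known. Array values are given for members called with a log2 difference from untreated of at least 0.75 at any time and for GAPDH, HIF1A, EPAS1, VEGFA, LDHA and PDK1. Values for STC2, LOX, HMOX1, CITED2, FBP1 and PGAM2 were added after they were seen. Of each further list at most the 4 called genes of largest difference are named. Marker lists covered adrenergic, mesenchymal, Schwann, endothelial and leukocyte cells; 2, 4 and 1 of 6 markers each of the last 3 lists passed the dim filter. Alternatives tried are those named in the closing section.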

Additional observations from a re-analysis of the deposited data

Results flagged for a closer look

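Values that stood apart from the other 3 of their group were looked for in the 140 groups of 4 arrays formed by 35 genes and 4 groups, and 11 were found; chance flags about 1 in 20. Of these, 5 were in 48 h replicate 4: HK1 read 11.60 there (others 11.35 to 11.38), PFKL 6.52 (5.89 to 5.99), PGK1 12.39 (12.40 in the others), PKM 7.95 (7.71 to 7.74) and LDHA 12.78 (13.14 to 13.16). In the 24 h group PFKL read 5.80 in replicate 3 (others 5.99 to 6.01), PGK1 12.56 in replicate 4 (12.55), PKM 7.96 in replicate 1 (8.01 to 8.02) and P4HA1 9.07 in replicate 1 (9.22 to 9.25). Among untreated arrays GAPDH read 12.93 in replicate 3 (others 13.07 to 13.08) and NDRG1 6.50 in replicate 1 (6.56 to 6.57). The PGK1 values differ by 0.01, the last digit of the table.

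The response of 23 genes differed between exposure times, in 35 of the limma contrasts between times at an adjusted p under 0.05. Higher at 48 h than at 24 h were GPI (0.23), PFKM (0.16), SLC2A1 (0.125), P4HA1 (0.19), KDM3A (0.185) and EPAS1 (0.275). Lower at 48 h than at 24 h were PFKFB3 (-0.652), PFKFB4 (-0.52), EGLN1 (-0.26), LDHA (-0.22), PKM (-0.217), ANKRD37 (-0.175), NDRG1 (-0.157), PGK1 (-0.155), TPI1 (-0.147), ENO1 (-0.128) and PGAM1 (-0.115). Higher at 48 h than at 6 h were VEGFA (0.36), PDK3 (0.257), GPI (0.255), PDK1 (0.24), PFKP (0.21), PFKM (0.195), P4HA1 (0.168) and SLC2A1 (0.142). Lower at 48 h than at 6 h were PFKFB3 (-0.485), PFKFB4 (-0.387), EGLN3 (-0.335), LDHA (-0.242), EGLN1 (-0.197), NDRG1 (-0.182), PGK1 (-0.137), ENO1 (-0.13) and TPI1 (-0.128). CA12 was higher at 24 h than at 6 h (0.47).

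Of the 17 differences between 6 and 48 h, 11 remained whichever array was left out. EGLN3 lost its call without any of 13 arrays, all but untreated replicates 1 and 3 and 48 h replicate 1 (adjusted p = 0.0523 to 0.12). Averaged over its 3 probe sets EGLN3 differed by -0.016 between 6 and 48 h (limma adjusted p = 0.868). The 2 other EGLN3 probe sets were called in opposite directions there (-0.262 and 0.55). TPI1 lost it without 6 h replicate 1, 3 or 4 or 48 h replicate 1, 3 or 4 (0.0511 to 0.0957), and P4HA1 without 6 h replicate 1, 2 or 4 or 48 h replicate 1, 2 or 3 (0.0549 to 0.0994). ENO1 lost it without 6 h replicate 2 or 4 or 48 h replicate 2 or 3 (0.0591 to 0.0745). LDHA lost it without 6 h replicate 2 (0.0635) or 48 h replicate 4 (0.06), and EGLN1 without 6 h replicate 2 (0.0549).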

How the results depend on the processing

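Members' calls against untreated that remained whichever array was left out numbered 21 of 23 at 6 h, 22 of 25 at 24 h and 25 of 25 at 48 h, and 20, 21 and 22 also remained under the other alternatives: averaged probe sets, no filter or a 50% filter on dim genes, 3 other scalings (array medians subtracted, repeated quantile normalization, cyclic loess), a trended robust eBayes, array weights, the replicate block, and the 8 arrays compared alone. Between times the calls that remained under both were 0 of 1 (24 against 6 h), 8 of 17 (48 against 24 h) and 6 of 17 (48 against 6 h).

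The number of members lower was 1 at 6 h with averaged probe sets, 2 at 24 h with cyclic loess, and at 48 h 7 with repeated quantile normalization, 7 with cyclic loess and 5 with trended robust eBayes. From 6 to 24 h the number higher was 2 with a 50% filter, 2 with medians subtracted, 3 with trended robust eBayes, 5 (and 1 lower) with array weights, 2 with the 8 arrays alone and 0 at an adjusted p under 0.01, where the numbers lower at 48 h were 4 against 24 h and 2 against 6 h. With 1 array left out the numbers higher lay between 19 and 21 (6 h), 21 and 25 (24 h), 22 and 23 (48 h), 0 and 2 (24 against 6 h), 4 and 7 (48 against 24 h) and 7 and 9 (48 against 6 h), and the numbers lower between 2 and 3, 1 and 2, 3 and 5, 0 and 0, 5 and 12, and 5 and 10.

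Medians at 6, 24 and 48 h were, for enzymes, 0.132, 0.138 and 0.155 with cyclic loess, 0.225 (6 h) and 0.235 (48 h) with medians subtracted, 0.188 (48 h) with repeated quantile normalization and -0.267, -0.296 and -0.341 centred on adrenergic markers. For transporters and regulators they were 0.518, 0.539 and 0.545 with cyclic loess, 0.320, 0.435 and 0.325 with averaged probe sets, 0.655 (24 h) with medians subtracted and 0.151, 0.134 and 0.102 with adrenergic centring. For other targets they were 0.377, 0.355 and 0.198 with cyclic loess, 0.260, 0.382 and 0.258 with averaged probe sets, 0.538 (6 h) with medians subtracted, 0.473 (6 h) with array weights and 0.046, -0.013 and -0.258 with adrenergic centring. With 1 array left out enzymes lay between 0.173 and 0.208, 0.177 and 0.210, and 0.188 and 0.225, transporters and regulators between 0.584 and 0.628, 0.602 and 0.645, and 0.607 and 0.713, and other targets between 0.386 (without untreated replicate 1) and 0.512, 0.391 and 0.516, and 0.288 and 0.322. The cause of these shifts was not tested.

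Single genes changed sign as follows, mostly where neither value was called. With cyclic loess: HK1 -0.042 (6 h) and -0.031 (24 h), PFKP -0.067 (6 h), PGAM1 -0.032 and -0.016, ENO1 -0.016 and -0.018, PDK3 -0.057 (6 h), PFKFB3 -0.002 (6 h), ADM -0.078 (24 h) and P4HA1 -0.071 (6 h). With repeated quantile normalization: PFKP -0.016, PGAM1 -0.013 and P4HA1 -0.001 (6 h), ADM -0.015 (24 h) and LDHB -0.002 (48 h). With medians subtracted: GAPDH 0.012 and 0.012, HIF1A 0.027 and 0.030 (6 and 24 h). With averaged probe sets: PKM 0.049 (24 h), ADM 0.043 (6 h) and 0.061 (48 h), EGLN1 -0.067 and -0.044 (6 and 24 h), HIF1A 0.191, 0.186 and 0.038. In other probe sets (lowest and highest): PKM 0.027 (24 h), LDHA -0.010 (6 h), PFKFB3 0.195 and PFKFB4 -0.040 (48 h), ADM 0.105 and 0.158 (6 h) and 0.088 and 0.205 (48 h), EGLN1 -0.148 and -0.147 (6 h) and -0.165 and -0.125 (24 h), EGLN3 -0.167 (48 h), HIF1A 0.153 and 0.270, 0.180 and 0.262, and 0.010 and 0.105. Without 1 untreated array: HK1 -0.001, PFKP -0.005, PGAM1 -0.002 and P4HA1 -0.006 (6 h, replicate 1), P4HA1 -0.006 (6 h) and ADM -0.046 and HIF1A 0.002 (24 h, replicate 4), HIF1A 0.017 (6 h) and 0.025 (24 h, replicate 2). Without 1 exposed array: PFKP -0.007 (6 h replicate 4), ADM -0.007 (24 h replicate 3), HIF1A 0.023 (24 h replicate 1) and LDHA 0.007 (48 h replicate 4). At the other end of these left-out fits stood PFKP 0.037, PGAM1 0.035, P4HA1 0.057 and HIF1A -0.026 (6 h), ADM 0.031 and HIF1A -0.021 (24 h) and LDHA -0.138 (48 h).

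The replicate numbers are shared by the groups, and these values do not settle whether they pair the arrays. Of same-number pairs of deviations 8 of 24 correlated above 0.1 (median 0.053), against 15 of 72 different-number pairs (median -0.018). Only 5 of 16 arrays correlated best with their own number. With the replicate block the numbers higher were 20, 24 and 22 and lower 2, 1 and 3 at 6, 24 and 48 h, and the calls lost were ADM at 6 h (adjusted p = 0.0568), PGAM1 between 24 and 48 h (0.0571) and EGLN3 between 6 and 48 h (0.0676); it changed no other call of a member. Levels near the dim limit, such as CITED2 after exposure, and near the top of the scale, such as GAPDH and LDHA, limit how well changes show.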

Other observations

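Genes of glucose metabolism outside the set had smaller median differences than the 35 genes of the set, with single genes from -1.38 to 1.17 at 48 h. Of a list of 32 further genes 26 were tested. At 6, 24 and 48 h 13, 14 and 12 rose (50.0%, 53.8% and 46.2%) and 3, 4 and 4 fell (11.5%, 15.4% and 15.4%). Among all tested genes 36.6%, 35.3% and 36.0% rose and 16.7%, 16.9% and 21.0% fell. The list had medians of 0.10, 0.18 and 0.12, against 0.09, 0.09 and 0.07 over all tested genes. FBP1, the fructose bisphosphatase that reverses the phosphofructokinase step, read 4.06 to 4.49 in untreated arrays, 4.68 to 5.10 at 6 and 24 h and 5.19 to 5.60 at 48 h. It rose by 0.65, 0.63 and 1.17, each ± 0.10 (limma adjusted p = 5.07e-05, 6.92e-05 and 3.58e-08). PCK2, the mitochondrial enzyme that makes phosphoenolpyruvate, rose by 0.90, 0.81 and 0.41. SLC2A10, a facilitative glucose transporter, fell (-1.04, -0.82 and -1.38). PGAM2, the muscle phosphoglycerate mutase, differed by -0.09 and 0.11 at 6 and 24 h without a call and rose by 0.66 at 48 h.

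The pentose phosphate pathway, which branches from glucose 6-phosphate, was measured through 6 of 7 listed enzymes. At 6 h 2 rose, at 24 h 2 and at 48 h 5, and 0 fell, with medians of 0.10, 0.07 and 0.28. At 6 and 24 h these shares, 33.3% each, were close to the 36.6% and 35.3% of all tested genes that rose, and the medians close to the all-gene 0.09; at 48 h 83.3% stood against 36.0%. PGLS, the lactonase, rose by 0.48, 0.56 and 0.44, and TKT, a transketolase that links the branch back to glycolysis, by 0.20, 0.17 and 0.34. RPE and RPIA, which interconvert pentose phosphates, were called higher at 48 h, by 0.33 and 0.23.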
